A study of Mus musculus with 15 samples.

Results

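The interleukin 1 family was followed in mouse lungs through 10 genes taken by their symbols: the ligands Il1a, Il1b, Il18, Il33 and Il1f9, the antagonist Il1rn, the receptors Il1r1 and Il1rl1, the shared receptor chain Il1rap and the decoy receptor Il1r2. Of these, 8 of 10 had a transcript cluster (called a probe from here on) with that gene as its only symbol, 1 probe each, among 21780 such probes of 28361 on the array. Il1r1, the signalling receptor for interleukin 1, and Il1rl1, the interleukin 33 receptor ST2, had none in the annotation used and were not analysed here. All mice were male and of the inbred strain C57BL/6N. RNA of one lobe, the inferior right, was hybridized to an Affymetrix whole-transcript array for each mouse, with 5 mice in each of 3 groups. H2S ventilated mice received synthetic air with 80 ppm hydrogen sulfide from a rodent ventilator for 6 h, air ventilated mice received synthetic air in the same way, and control mice breathed synthetic air by themselves for 6 h. The ventilator delivered tidal volumes of 12 ml/kg over a positive end-expiratory pressure of 2 cmH2O. The protocol gives ketamine and acepromazine anaesthesia, an arterial line and a tracheal tube for the animals before they were randomized, and lavage fluid was collected from the mice before tissue was frozen. No genetic change was made in any group, the age is given as a body weight only, and mice breathing H2S by themselves were not analysed here.

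Interleukin 1 alpha and interleukin 1 beta are inflammatory cytokines that bind IL1R1, which then takes up the chain encoded by Il1rap and signals through MYD88 and IRAK kinases to NF-kB. The antagonist IL1RN occupies IL1R1 without recruiting that chain, and IL1R2 binds the ligand but lacks the intracellular domain needed to signal, so it is called a decoy. Interleukin 33 signals through ST2 and the same shared chain, interleukin 36 gamma (written Il1f9 in the annotation) through IL1RL2 and that chain, and interleukin 18 through a receptor pair of its own. In the lung, interleukin 33 is stored in nuclei of epithelial and other structural cells and released on damage, interleukin 1 beta and interleukin 18 need cleavage by caspase-1, and IL1R2 is known from neutrophils and monocytes, where in human cells glucocorticoids raise it.

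Start-site sequences of 4 members are shown: those of the decoy Il1r2 and the ligand Il1f9, which rose most, and, to set beside them, those of Il1a and Il1b, the ligands that the decoy binds, which did not pass in limma. Each is the 250 bases before an annotated start in RefSeq on GRCm38.p6, 5′ to 3′ on the gene's strand, with matches to the motifs searched in capitals.
Il1r2, chr1:40085843-40086092 (+ strand): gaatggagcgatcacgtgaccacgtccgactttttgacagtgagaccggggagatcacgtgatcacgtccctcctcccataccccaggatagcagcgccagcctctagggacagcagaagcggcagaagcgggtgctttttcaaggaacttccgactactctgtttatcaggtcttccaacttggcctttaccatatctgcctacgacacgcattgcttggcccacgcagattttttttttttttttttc
Il1f9, chr2:24186226-24186475 (+ strand): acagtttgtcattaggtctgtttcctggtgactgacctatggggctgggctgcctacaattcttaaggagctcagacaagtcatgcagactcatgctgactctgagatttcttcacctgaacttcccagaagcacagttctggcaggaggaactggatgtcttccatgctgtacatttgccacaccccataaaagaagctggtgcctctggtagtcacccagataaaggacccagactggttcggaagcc
Il1a, chr2:129309973-129310222 (- strand): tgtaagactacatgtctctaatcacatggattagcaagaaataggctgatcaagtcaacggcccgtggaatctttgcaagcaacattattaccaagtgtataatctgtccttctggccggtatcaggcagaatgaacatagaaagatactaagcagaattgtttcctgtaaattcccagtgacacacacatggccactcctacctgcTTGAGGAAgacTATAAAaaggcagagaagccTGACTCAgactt
Il1b, chr2:129371140-129371389 (- strand): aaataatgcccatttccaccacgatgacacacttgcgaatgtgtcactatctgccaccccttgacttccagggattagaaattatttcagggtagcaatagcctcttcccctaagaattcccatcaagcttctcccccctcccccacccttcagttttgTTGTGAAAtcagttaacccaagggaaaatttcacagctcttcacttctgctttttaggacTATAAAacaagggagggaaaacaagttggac
The window of Il1r2 lies inside the annotated span of the gene. Those of Il1a and Il1b overlap the spans of their genes in part, and that of Il1f9 lies before its gene. The motifs searched on both strands were NF-kB (GGGA and TTCC, 2 bases apart), AP-1 (TGANTCA), a glucocorticoid half-site (AGAACA) and its full palindrome (AGAACA and TGTTC, 3 bases apart, which contains the half-site), C/EBP (TTNNGNAA) and the TATA box (TATAAA). Among 32851 windows of this length in the table, 1.21%, 6.75%, 16.1%, 0.0304%, 36.8% and 12.4% held a match, in that order of motifs. The windows of Il1r2 and Il1f9 held 0 matches. Il1a had a C/EBP match, a TATA box and an AP-1 match, and Il1b a C/EBP match and a TATA box. All 10 genes had a window in the table, 15 windows in all with alternative starts, and 0 of these held the NF-kB letters. A match describes letters in this window and not a bound factor, and its absence says nothing about other parts of the gene.

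The values are intensities that the study's authors had quantile normalized, transformed here to log2. A difference passed at a Benjamini-Hochberg adjusted p under 0.05 in limma over all 28361 probes. Array medians ran from 179.1 to 187.4, and 2 arrays of a group correlated at 0.984 to 0.994 over probes. H2S ventilated lungs had higher levels of Il1r2, Il1f9 and Il1rn than control lungs, 3 of 8 members, where 7.86% of all probes passed (3.92% higher). Air ventilated lungs had higher levels of Il1r2 and Il1f9 than control lungs, 2 of 8, where 3.44% of all probes passed (1.56% higher). No member fell in either comparison. Between H2S and air ventilated lungs, 0 of 8 members passed in limma, where 0.0776% of probes did. In that comparison 2 members had an unadjusted p under 0.05, and CyberT, the regularized test named in the study's methods, passed 1, Il33. By rank, between 3453 and 7799 of the 28361 probes had an unadjusted limma p under 0.05 with H2S against control. Between 1395 and 4537 did with air against control, and between 799 and 4268 for H2S against air. The share of all probes that passed in CyberT was not counted, so CyberT counts have no background here. Both comparisons with control rest on one set of 5 control mice. Mice are numbered 1 to 5 within a group only to tell them apart, and the precision of each value is limited by the number of arrays. The lobe was measured as bulk tissue, so fewer cells of a type and less RNA per cell cannot be told apart.

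**Figure D1:**
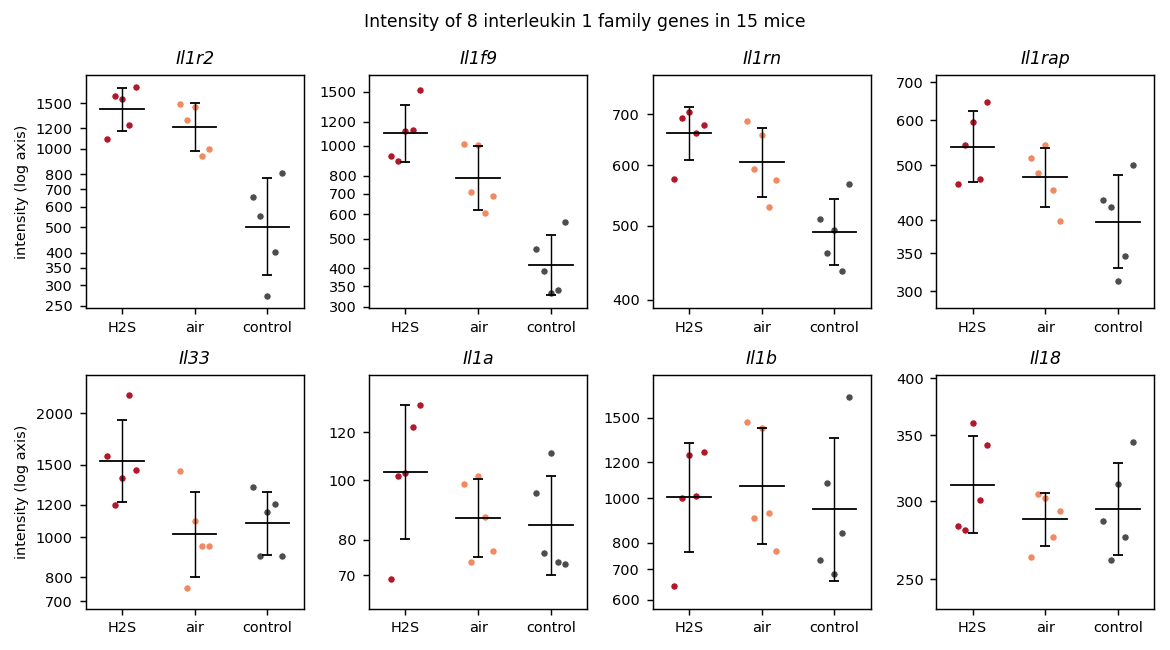
Intensity (log axis) of the 8 measured members in each mouse, with 5 H2S ventilated, 5 air ventilated and 5 control mice per panel; bars are the mean and SD of log2 values, drawn back on the intensity scale. Il1r2 and Il1f9 of both ventilated groups lie above every control mouse, Il1rn does so in the H2S ventilated group, and the groups overlap for Il1b and Il18.

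The decoy receptor Il1r2 had the largest change of the members. Its intensity was 1089, 1599.5, 1549.7, 1236 and 1723 in H2S ventilated mice 1 to 5, 1491, 1296, 1450.0, 942 and 1002 in air ventilated mice, and 656, 555, 273, 401 and 806 in control mice. Every ventilated mouse, with or without H2S, lay above every control mouse, and the 2 ventilated groups overlapped. The log2 level averaged 10.5 ± 0.28 with H2S, 10.2 ± 0.31 with air and 8.97 ± 0.61 in control lungs (SD, n = 5 each). H2S ventilation was 2.82-fold above control, a log2 difference of 1.496 (SE 0.24, 95% interval 0.99 to 2.01, limma adjusted p = 0.00146). Air ventilation was 2.42-fold above control, a log2 difference of 1.27 (SE 0.24, 95% interval 0.76 to 1.78, limma adjusted p = 0.00782). In the exact permutation test, two-sided, both differences gave p = 0.00794, the smallest that 5 against 5 mice allow. H2S and air ventilated lungs differed by 0.22 in log2, with an interval of -0.29 to 0.73 that holds 0 (limma adjusted p = 0.997).

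The ligand Il1f9, interleukin 36 gamma, a cytokine made mainly by epithelial and myeloid cells, came next. It measured 926, 897, 1122, 1129 and 1524 in H2S ventilated mice, 1015, 711, 1006, 604 and 688.5 in air ventilated mice, and 464, 393, 332, 341 and 566 in control mice. The highest control mouse stayed below the lowest ventilated one. Mean log2 levels were 10.1 ± 0.30 with H2S, 9.62 ± 0.34 with air and 8.68 ± 0.32 in control lungs (SD, n = 5 each). The change against control was 2.68-fold with H2S (log2 difference 1.42, SE 0.18, 95% interval 1.03 to 1.81, limma adjusted p = 0.000384). It was 1.92-fold with air (log2 difference 0.94, SE 0.18, 95% interval 0.55 to 1.33, limma adjusted p = 0.00945). Between the ventilated groups the H2S mean was 0.48 higher in log2 (95% interval 0.09 to 0.87), which did not pass over all probes (limma adjusted p = 0.671, exact permutation p = 0.0635). Of the 5 H2S ventilated mice, 3 lay above all air ventilated mice.

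Il1rn, which encodes the receptor antagonist, moved less. Its intensity was 575, 692, 705, 662 and 679 in H2S ventilated mice, 686, 594, 657, 529 and 574 in air ventilated mice, and 510.0, 460.05, 493, 436 and 566 in control mice. All 5 H2S ventilated mice exceeded every control mouse, whereas air ventilated mouse 4 lay within the control range. The level was 1.35-fold above control with H2S (log2 difference 0.43, SE 0.09, 95% interval 0.23 to 0.62, limma adjusted p = 0.00805). With air the log2 difference from control was 0.30 (SE 0.09) and did not pass (limma adjusted p = 0.0918, exact permutation p = 0.0159), although it did without air ventilated mouse 4 (0.35, limma adjusted p = 0.0474). H2S and air ventilated lungs differed by 0.13 in log2 (95% interval -0.07 to 0.32).

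Il1rap encodes the chain that receptors for interleukin 1, 33 and 36 share. It measured 463, 542, 596, 472 and 644 in H2S ventilated mice, 515, 484, 543, 452 and 399 in air ventilated mice, and 434, 421, 313, 345 and 501 in control mice. The groups overlapped, with control mouse 5 above 2 of the H2S ventilated mice. The log2 difference from control was 0.44 with H2S (SE 0.13, 95% interval 0.16 to 0.72), just outside the threshold (limma adjusted p = 0.0519, exact permutation p = 0.0238), and 0.26 with air (limma adjusted p = 0.411). The H2S difference passed once control mouse 5, H2S ventilated mouse 1 or H2S ventilated mouse 4 was left out, at limma adjusted p = 0.0247, 0.0480 and 0.04996 in that order.

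**Figure D2:**
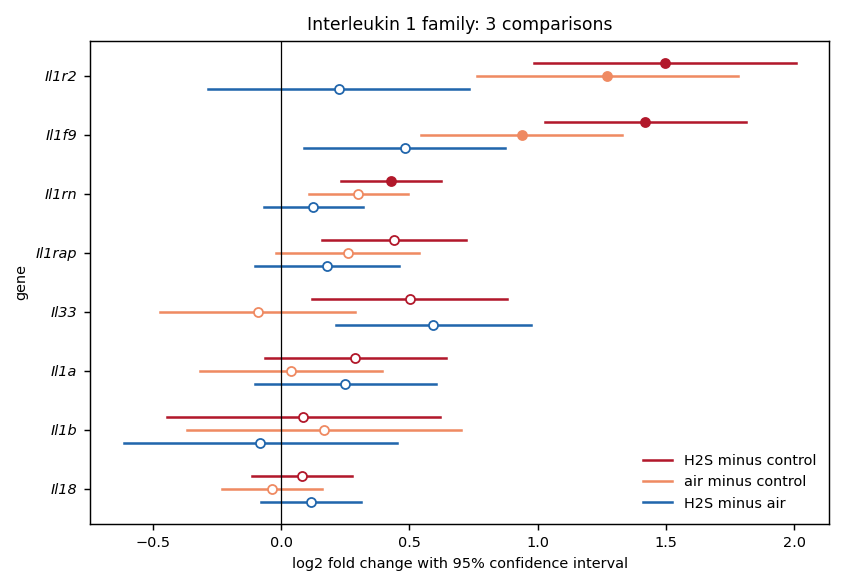
Log2 fold change of each measured member with its 95% interval from limma, for H2S minus control, air minus control and H2S minus air (5 mice per group); filled points passed at an adjusted p under 0.05 and open points did not. Il1r2 and Il1f9 are filled in both comparisons with control and Il1rn with H2S, no point of H2S minus air is filled, and the intervals of Il1b and Il18 span 0 in all 3.

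The remaining ligands did not pass in limma in any comparison. Il33 was the one whose H2S and air values lay furthest apart: it measured 1575, 1195, 1389, 2213 and 1456 in H2S ventilated mice, 1446, 751, 1097.5, 952 and 953 in air ventilated mice, and 1322, 898, 1148, 1207 and 899 in control mice. H2S ventilated mouse 4 was the highest of all, and 1 air ventilated and 2 control mice lay within the range of the H2S ventilated mice. The log2 difference was 0.59 for H2S against air (95% interval 0.21 to 0.97, unadjusted limma p = 0.00452, adjusted p = 0.438, exact permutation p = 0.0238). Against control it was 0.50 with H2S (95% interval 0.12 to 0.88, limma adjusted p = 0.106) and -0.091 with air (limma adjusted p = 0.93). CyberT passed Il33 for H2S against control and for H2S against air (CyberT adjusted p = 0.00791 and 0.0275).

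Il1b, which encodes the secreted ligand of IL1R1 made by macrophages and neutrophils, varied more within groups than between them. Its intensity was 643, 1004, 1243, 1010.45 and 1264 in H2S ventilated mice, 1468, 906, 1425, 930.4 and 769 in air ventilated mice, and 733, 1083, 683, 840.2 and 1662 in control mice. The highest value of all was that of control mouse 5 and the lowest that of H2S ventilated mouse 1. The log2 difference from control was 0.087 with H2S (95% interval -0.45 to 0.62) and 0.17 with air (95% interval -0.37 to 0.70), with limma adjusted p = 0.911 and 0.896. Both intervals hold 0, and at this number of mice they leave room for a fall or a rise up to their bounds.

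Il1a, which acts as an alarm signal from dying cells, had a dim probe, at percentile 32.9 of mean brightness over all probes. It measured 69.0, 102, 103, 122 and 133 in H2S ventilated mice, 98.6, 73.4, 102, 87.2 and 76.8 in air ventilated mice, and 95.3, 76.2, 111, 73.4 and 73.0 in control mice. H2S ventilated mouse 1 was the lowest of the 15 and the other 4 lay among or above the remaining mice. The log2 difference from control was 0.29 with H2S and 0.039 with air (limma adjusted p = 0.37 and 0.978). Il18, a ligand that induces interferon gamma in lymphocytes, measured 283, 281, 359.9, 301 and 342 in H2S ventilated mice, 263, 305, 302, 276 and 293 in air ventilated mice, and 287, 261, 312, 276 and 344 in control mice. The 3 groups covered nearly the same range, and the log2 difference from control was 0.081 with H2S and -0.035 with air (limma adjusted p = 0.716 and 0.956). Between H2S and air ventilated lungs the log2 difference was 0.25 for Il1a, -0.081 for Il1b, 0.12 for Il18 and 0.18 for Il1rap, all at a limma adjusted p of 0.997.

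Over the 8 measured members, the log2 difference from control was positive in 8 with H2S (median 0.43, against 0.0023 over all probes) and in 6 with air (median 0.21, against 0.0135 over all probes). The 2 members that passed in both comparisons, Il1r2 and Il1f9, also met the thresholds of the study when these were applied to limma values. The thresholds were p at most 0.005, adjusted p up to 0.1 and a change of 1.7-fold or more. The study itself applied them to CyberT and an effect size score. By limma, 0.656% of probes met them as higher with H2S and 0.342% with air. Il1rn with H2S fell short of the fold. The groups did not overlap for 3 members with H2S and 2 with air, beside 4.11% and 2.65% of all probes that were higher without overlap, and for 0 between H2S and air, beside 1.2% of probes in either direction. Because Il1b stayed within its spread while Il1r2 did not, the log2 ratio of the decoy to the ligand ran from 0.29 to 0.76 in H2S ventilated mice, from 0.02 to 0.52 in air ventilated mice and from -1.32 to -0.16 in control mice. That ratio of probes shows unequal change only, and the ratio of Il1rn to Il1b overlapped between the groups.

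The same mice often stood at the end of their group for several members. Control mouse 5 had the highest control value in 6 of 8 members, all except Il1a and Il33, and control mouse 3 the lowest in 4, among them Il1r2 and Il1f9. H2S ventilated mouse 5 was highest of its group in 5 members and mouse 1 lowest in 5, and air ventilated mouse 1 was highest in 5. Neutrophil markers were set beside this order. Their mean log2 level over 17 markers was highest in H2S ventilated mouse 5 (10.1) and lowest in mouse 1 (9.28) of that group, and highest in control mouse 5 (9.70) and lowest in control mouse 3 (8.96) among controls. Air ventilated mouse 1 (9.87) lay just below mouse 3 (9.88), the highest of that group.

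At the limma threshold, a minority of neutrophil markers rose in the comparisons in which Il1r2 and Il1f9 rose. Of 17 measured (of 20 listed), 5 rose with H2S, 3 with air and 0 fell in either, with a median log2 difference of 0.52 and 0.26. With H2S 10 of them had an unadjusted limma p under 0.05 and CyberT passed 10. With air these counts were 6 and 5. Mmp8, the neutrophil collagenase, rose by 1.94 with H2S and 1.88 with air in log2 (limma adjusted p = 0.000452 and 0.00175), and Retnlg, a secreted resistin-like protein of mouse neutrophils, by 1.23 and 1.15 (limma adjusted p = 0.000618 and 0.00267). Lcn2, which is also on the glucocorticoid and NF-kB lists used here, rose in both, and Clec4d and Cxcr2 with H2S (Cxcr2 is named because its value was seen to pass). Other defining markers did not pass in limma: with H2S and with air, S100a8 differed by 0.50 and 0.47, S100a9 by 0.51 and 0.37, Ly6g by 0.89 and 0.76 and Csf3r by 0.07 and 0.13 in log2. With H2S their unadjusted limma p was 0.0495, 0.0464, 0.00863 and 0.714 in that order. Some further granule and enzyme genes of the list lay near 0 or below it. Ltf was at -0.28 and -0.039, Mmp9 at -0.045 and 0.053 and Camp at 0.018 and 0.031. Ncf1 was at 0.031 and -0.093 and Hdc at 0.12 and -0.19. The granule gene Ngp lay higher, at 0.70 and 0.22, as did Trem1, at 0.52 and 0.26, and Clec4e, at 0.52 and 0.24. None of these passed in limma. The summed intensity of the list was 18860 to 31240 in H2S ventilated mice, 19260 to 27000 in air ventilated mice and 14300 to 20480 in control mice. The part of neutrophil number in the values of Il1r2, Il1f9 and Il1rn was not tested.

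**Figure D3:**
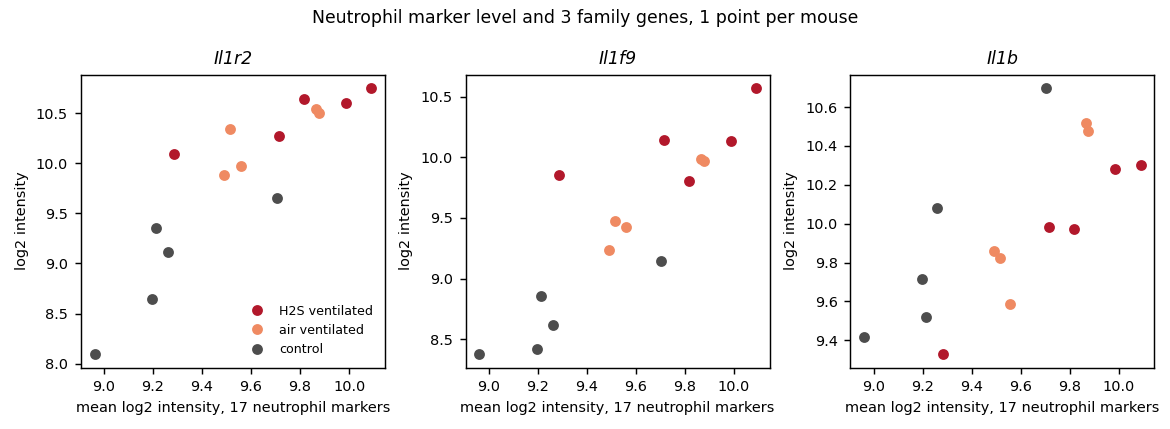
Log2 intensity of Il1r2, Il1f9 and Il1b against the mean log2 intensity of 17 neutrophil markers, 1 point per mouse for 5 H2S ventilated, 5 air ventilated and 5 control mice. Control mouse 5, at a marker level of 9.70, overlaps the ventilated mice on the horizontal axis and has less Il1r2 (an intensity of 806) than any of them. This is 1 mouse, and the part of neutrophil number was not tested.

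Genes known to be induced by glucocorticoids moved in the same lungs. Of 19 measured (of 20 listed), 15 rose with H2S and 13 with air and 0 fell, with a median log2 difference of 0.57 and 0.63. Fkbp5, a co-chaperone of the glucocorticoid receptor and a usual readout of it, rose by 1.56 and 1.49. The mean log2 level of the list ran from 11.0 to 11.3 in H2S ventilated mice, 10.8 to 11.2 in air ventilated mice and 10.1 to 10.5 in control mice, without overlap of ventilated and control mice. In this list control mouse 5 was not the highest control (10.4). Glucocorticoid levels were not measured here, and the part of these hormones in the members' values was not tested.

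For each member that passed in limma, the genes whose levels over the 15 arrays were most like its own were found. By Pearson correlation of log2 values among 19926 genes, Il1r2 was followed most closely by Cd33 (0.962), a sialic acid binding receptor of myeloid cells, Mmp8 (0.959) and Retnlg (0.949). Il1f9 was followed by Arg2 (0.963), the mitochondrial arginase, Retnlg (0.950) and Klf9 (0.946), a transcription factor that is also on the glucocorticoid list. Il1rn was followed by Mirt2 (0.932), a long non-coding RNA, Rdh12 (0.929), a retinol dehydrogenase, and Klf9 (0.925). These values describe likeness over arrays that share the group differences and carry no test.

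The rest of the pathway was read by list, beside 7.86% of all probes that passed in limma with H2S and 3.44% with air. Those shares belong to the limma calls only, not to the counts at an unadjusted p or in CyberT. Of the other ligands and antagonists of the family, 5 of 5 were measured and 0 passed in limma, with 0 at an unadjusted p under 0.05 and 0 in CyberT in each comparison. Il18bp, the secreted binding protein that holds interleukin 18, differed from control by -0.20 with H2S and -0.21 with air in log2. Of 6 other receptor genes, 0 passed in limma, while 1 with H2S and 2 with air had an unadjusted p under 0.05 and CyberT passed 1 in each. Il18r1, the ligand-binding chain for interleukin 18, differed by -0.54 with H2S (limma adjusted p = 0.0511) and -0.50 with air. Il1rl2, the receptor for the ligand encoded by Il1f9, differed by -0.14 and -0.15.

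Of 16 measured signalling genes (of 18 listed), 1 rose with H2S, Ikbkg, the regulatory subunit of the kinase that releases NF-kB (0.23 in log2, limma adjusted p = 0.0475). CyberT passed 1 of them with H2S, and 8 had an unadjusted p under 0.05. With air 0 passed in limma and 0 in CyberT, and 1 had an unadjusted p under 0.05. Irak3, an inhibitory member of the IRAK family, differed by 0.36 with H2S (limma adjusted p = 0.0911), and Tollip, another inhibitor, by 0.22 (limma adjusted p = 0.0644). Of 18 genes for cleavage of the ligands and the inflammasome, Nek7, a kinase that NLRP3 needs, rose by 0.48 with H2S and 0.48 with air (limma adjusted p = 0.00553 and 0.00965). In the same list Pycard, the adaptor ASC, fell by 0.49 and P2rx7, the ATP-gated channel that triggers NLRP3, fell by 0.40 with H2S (limma adjusted p = 0.0178 and 0.0380). With air Pycard and P2rx7 differed by -0.42 and -0.35 without passing (limma adjusted p = 0.0695 and 0.122). Their log2 difference for H2S minus air was -0.071 and -0.057. Casp1 differed by -0.14 with H2S and -0.32 with air, and Nlrp3 by 0.10 and 0.041, and none of these values passed. In this list 10 genes with H2S and 6 with air had an unadjusted p under 0.05, and CyberT passed 3 and 2.

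Of 22 known NF-kB targets of interleukin 1, 5 rose and 0 fell with H2S, and 1 rose and 2 fell with air. Ptgs2, cyclooxygenase 2, rose by 1.96 in log2 with H2S (limma adjusted p = 3.59e-05), differed by 0.31 from control with air, and was 1.65 higher with H2S than with air (limma adjusted p = 0.000638). Between the ventilated groups limma passed 1 gene of this list, Ptgs2, CyberT passed 3, and 9 had an unadjusted p under 0.05. Saa3, an acute-phase protein, rose by 1.23 with H2S and Lcn2 by 0.57. With air Saa3 differed by 0.29 and did not pass. Lcn2 was also the 1 gene of the list that rose with air, and it is counted among the neutrophil and glucocorticoid-induced genes as well. Zc3h12a, an RNase that shortens the life of cytokine mRNAs, and Csf2 complete the 5 and are named because their values were seen to pass. Tnfaip3, the inhibitor A20, fell by 0.44 with air (limma adjusted p = 0.00749), as did Vcam1, by 0.38, also named after its value was seen. With H2S Tnfaip3 and Vcam1 differed by -0.20 each and did not pass. The classical products Il6, Tnf and Cxcl1 differed from control by 0.40, -0.14 and 0.20 with H2S and by -0.40, -0.031 and 0.036 with air, and none passed. The probe of Il6 was dim, at a mean log2 of 4.53 with H2S, 3.73 with air and 4.13 in control lungs, so its value says little. Cxcl2 differed from control by 0.78 with H2S and 0.021 with air, and Ccl20 by 0.011 and 0.64. Neither passed in limma, and Ccl20 was -0.63 for H2S minus air.

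**Figure D4:**
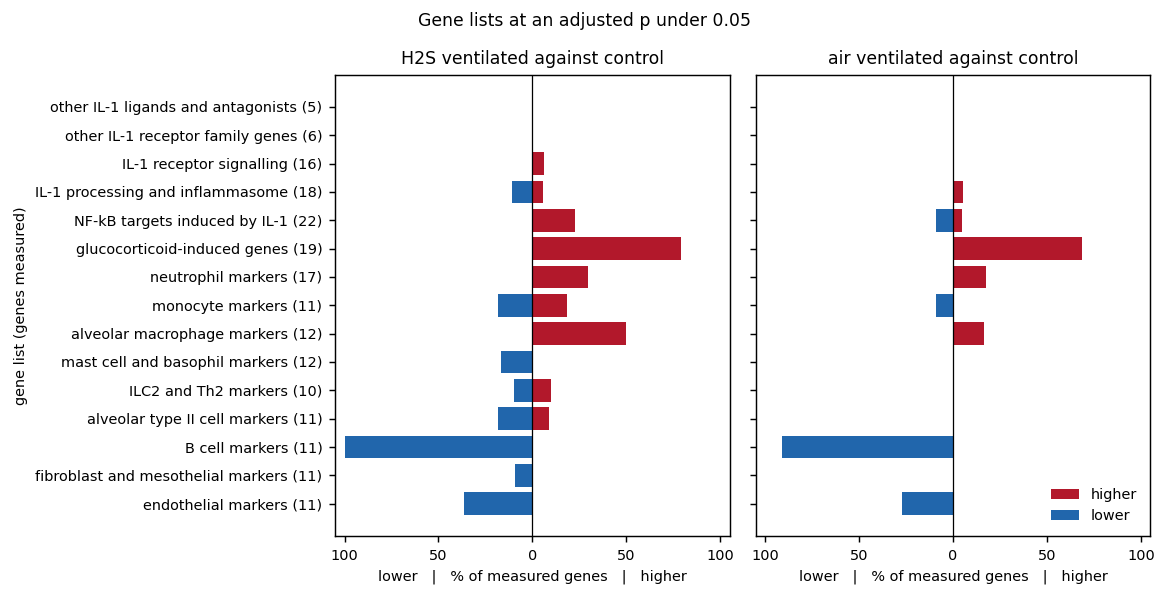
Percent of the measured genes of each list that were higher (right) or lower (left) than in control lungs at a limma adjusted p under 0.05, for H2S ventilated and air ventilated lungs; the number measured is in parentheses. Glucocorticoid-induced genes reach furthest to the right (15 and 13 of 19) and B cell markers furthest to the left (11 and 10 of 11), while other ligands and receptors of the family have no bar.

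Markers of further cell types that make or answer these cytokines were read in the same way. Alveolar macrophage markers rose in 6 of 12 with H2S and 2 of 12 with air, among them Mrc1, the mannose receptor (0.53 and 0.37 in log2). Pparg, the regulator of that cell type, rose with H2S against control (0.45) and against air (0.39, limma adjusted p = 0.0317). The other 6 of this list did not pass. With H2S and with air, Itgax differed by -0.015 and -0.19, Cd68 by 0.036 and -0.12 and Car4 by 0.028 and -0.043. Siglec5 differed by 0.063 and 0.090, Ctsk by 0.17 and 0.024 and Plet1 by 0.18 and 0.089. Monocyte markers split, 2 rising and 2 falling with H2S and 1 falling with air. Cd14, a lipopolysaccharide co-receptor, was higher by 0.74 with H2S and by 0.42 with air, where it did not pass. Cx3cr1 was lower and passed in both, at -0.66 with H2S and -0.50 with air. Of 12 markers of mast cells and basophils, which carry ST2, 2 fell with H2S, Kit (-0.47) and Cpa3 (-0.73), and 10 did not pass. With air these 2 differed by -0.27 and -0.47 without passing. Cpa3 was dim, at a mean log2 of 5.23 with H2S and 5.95 in control lungs, below Il1a (6.69 and 6.40). Kit was at 10.5 and 11.0, and how much of its signal comes from mast cells was not tested. Of 10 markers of type 2 lymphocytes, which also carry ST2, Rora rose (0.38) and Ptgdr2 fell (-0.35) with H2S. With air Rora and Ptgdr2 differed by 0.24 and -0.14, and with H2S Il5 and Il13 differed by 0.52 and -0.17, all without passing. B cell markers fell in 11 of 11 with H2S and 10 of 11 with air, and endothelial markers in 4 and 3 of 11. Markers of alveolar type II cells, which define the lung and are a source of interleukin 33 in mice, averaged 12.3 to 12.4 in log2 in each group, and rose in 1 and fell in 2 of 11 with H2S, and those of fibroblasts and mesothelium fell in 1 of 11. The part of any of these cell types in the members' values was not tested.

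Running numbers in the sample names fall into 2 sets, 1 to 12 with 3 mice of each group and 20 to 28 with 2, and no source used here says what they mean. The leading component of variation within groups (26.1%) separated these sets, so the members were also read inside each. In the first set, Il1r2 was 1.57 above control with H2S and 1.48 with air in log2 (limma adjusted p = 0.0306 and 0.0567), and Il1f9 1.55 and 0.98 (limma adjusted p = 0.00761 and 0.0868). In the second set, Il1r2 was 1.38 above control with H2S and 0.95 with air, and Il1f9 1.23 and 0.87, and none passed with 2 mice a group. Il1rn with H2S was 0.36 and 0.53 above control in the 2 sets and passed in neither (limma adjusted p = 0.178 and 0.36). Il33 with H2S was 0.68 above control in the first set and 0.24 in the second. With the sets as a block in the fit, the members that passed still did, and Il1rap joined them with H2S (limma adjusted p = 0.0412).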

How the data were processed

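Lungs of 15 mice were profiled on 1 array each. The authors subtracted a background from anti-genomic probes, quantile normalized the arrays and summarized probes with RMA. RMA is also named in the submitters' processing notes. The deposited table holds linear intensities in 15 columns, 0 of them unused here, and log2 was taken from them here, since the design had allowed for log2 values already. Groups came from the treatment label of each sample.

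Gene names came from the platform annotation: 21780 probes had 1 symbol, 1617 several and 4964 none. Per gene the probe of highest mean was used. All arrays entered 1 limma 3.58.1 fit (R 4.3.3) without covariate, with 3 comparisons adjusted over 28361 probes. Each deposited log2-transformed intensity comes from 1 mouse, so errors measure the spread between mice. Exact permutation tests, two-sided, were run per member. Promoter windows and motifs were read with Python 3.11.15 and plots drawn with matplotlib 3.10.9. The model was tested on simulated data.

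The members, lists and alternatives were chosen with earlier results of these data known. Named were all members, up to 4 genes a list with the smallest adjusted p (not all are printed) and the 3 genes most correlated with each member that passed. Genes named beyond that rule were chosen after their values were seen. Replicate numbers follow sample order and are names only. Alternatives were CyberT (confidence 15, window 101), other normalizations, filters and weights, the number sets, and each mouse left out; the thresholds of the study and runs of 4 running numbers as a block were added after the values were seen.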

Additional observations from a re-analysis of the deposited data

How the results depend on the processing

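Of 672 member values under alternatives, 630 kept their direction and their side of the threshold, 8 lost the call, 14 gained one and 20 changed sign, of which 0 were called. Some of the 672 could not change, so the tally overstates stability. Each measured member had 1 probe, so the mean over the probes of a gene repeated the main values. Folds from medians took over the main calls, so only their sign could differ. Several others, such as CyberT and leaving out a mouse of the third group, kept the fold, so only their calls could differ. The 8 losses all lay in the number sets analysed alone, where members passing fell to 0 with air and Il1rn lost its call with H2S in mice 1 to 12, and 0 passed with H2S and 0 with air in mice 20 to 28; these fits hold fewer mice. CyberT passed 5 members with H2S against control and 1 between H2S and air, adding Il1rap and Il33 (limma adjusted p = 0.0519 and 0.106), and the cause of the difference was not tested. The share of all probes that passed in CyberT was not counted beside these. With single mice left out, the count ran from 3 to 4 with H2S, from 2 to 3 with air and from 0 to 0 between them. Il1rap with H2S passed in 10 alternatives. All sign changes were of small log2 differences. With array weights Il1b became -0.011 and Il18 0.0014 with air, and Il1b 0.16 for H2S minus air. With the fold from medians Il18 with air became 0.032 and Il1b for H2S minus air 0.12. In mice 1 to 12 Il1a with air became -0.032, and with H2S Il1b became -0.072 and Il18 -0.0083. In mice 20 to 28 Il18 with air became 0.078. With single mice left out, Il1b ranged from -0.030 to 0.29 with H2S and from -0.20 to 0.080 for H2S minus air, and with air Il1a from -0.018 to 0.14, Il18 from -0.078 to 0.021 and Il33 from -0.22 to 0.018. The number sets as a block ended no call. The running numbers also fall into runs of 4 (1 to 4, and so on), and these were added as a replicate block after the values were seen; 1 H2S ventilated mouse, mouse 2, has no other mouse in its run and drops out. Most runs hold a mouse of each group. Mice of 1 run in different groups correlated in their deviations at -0.18 to 0.36, with 10 of 13 pairs over 0.1. Their mean was 0.18, beside -0.037 for pairs of different runs. Of 14 mice, 3 correlated best with a mouse of their own run. That count cannot decide whether the runs are pairs, since most mice of other groups belong to other runs. The main fit did not use the runs, which entered only as this block. With this block 3 members passed with H2S, 2 with air and 0 between H2S and air, and no call changed; for H2S minus air Il33 was 0.71 (limma adjusted p = 0.274) and Il1f9 0.53 (limma adjusted p = 0.489). The probe of Il1a was dim, at percentile 32.9 of brightness, and signal over background was not measured.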
